A study of Mus musculus with 2 samples.

Results

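Voltage-gated sodium (Nav) and calcium (Cav) channels are built from a pore-forming alpha subunit and smaller accessory subunits. The pore-forming genes are the Scn alpha genes and the Cacna1 genes, and the accessory genes are the Scn beta genes, Cacna2d (alpha2delta), Cacnb (beta) and Cacng (gamma). Sodium channels start and carry the action potential, calcium channels turn voltage into calcium entry and transmitter release, and alpha2delta and beta subunits bring calcium channels to the membrane. Inherited defects of several of these genes cause ataxia in mice, among them Cacna1a (tottering), Cacna2d2 (ducky), Cacnb4 (lethargic), Cacng2 (stargazer) and Scn8a (motor endplate disease).

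Of the 32285 features in the count matrices, 40 had symbols that named a subunit of these channels. Symbols alone set the list, but the channel genes were chosen as a group with earlier results of these data known. The 38 described here are 9 Nav alpha, 3 Nav beta, 10 Cav alpha1, 4 alpha2delta, 4 Cav beta and 8 gamma genes. They were followed by single-nucleus RNA sequencing in the cerebellum of mice at postnatal day 1 (P1). The control library came from 12 pooled cerebella of Cre-negative littermates, whose genotype is given as Tox3f/f in one label and as Tox3f/f or Tox3f/+ in another, and the conditional knockout (cKO) library from 12 pooled cerebella of Nestin-cre;Tox3f/f mice. At least 1 floxed Tox3 allele was therefore carried on both sides. Nestin-cre acts in neural progenitors, so neurons and glia derived from them are targeted and microglia and vessel cells are not. Tox3 encodes an HMG-box nuclear protein, and the study asked what its loss does to the developing cerebellum. Each condition was 1 library, so differences between the libraries had no replicate check and no test was made. The 95% intervals below are exact and cover counting error only, and genotype, pool and library cannot be told apart.

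The control library held 4857 barcodes and 22325208 unique molecular identifiers (UMIs), and the cKO library 6946 barcodes and 33726533 UMIs, with medians of 4072 and 4161.5 UMIs per barcode. After removal of predicted doublets and of nuclei rich in mitochondrial UMIs, 4667 and 6555 nuclei were kept, and 9 barcode sequences occurred in both libraries. Channel genes took 0.534% of the control UMIs and 0.568% of the cKO UMIs. Tox3 itself stood at 104 counts per 1000000 UMIs (CPM) in the control library and 119 CPM in the cKO library, so its UMIs did not check the labelled genotype, and "cKO library" below means the library with that label. In GNP-like nuclei, defined next, Tox3 was at 235 and 543 CPM.

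Nuclei with at least 1000 UMIs were gated into classes by lists of marker genes, which contained no channel gene. The 8 classes described were granule neuron progenitor-like (GNP-like, 442 control and 121 cKO nuclei), granule neuron-like (GN-like, 710 and 910), Purkinje cell-like (256 and 673), GABAergic interneuron-like (417 and 973), glutamatergic cerebellar nuclei-like (CN-like, 44 and 88), astroglia-like (304 and 773), oligodendrocyte lineage-like (79 and 247) and microglia-like (57 and 159). Under 1000 UMIs lay 20.9% of the control and 10.1% of the cKO nuclei. Over both libraries together, each class held its own markers at no less than 2-fold their median level in the other 7. The exceptions were Etv1 in GN-like and Ppp1r17 in Purkinje cell-like nuclei, and a small constant was added to all levels. Since the nuclei were gated on these same markers, this is a description and does not test the class names. The highest class of a gene below is the highest of these 8. Microglia-like nuclei, which are not neurons, served as a gauge of free RNA, and how much of a gene's UMIs free RNA brought into each class was not tested.

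Of the 38 genes, 31 reached 100 UMIs over both libraries. The others were near absent at P1. Scn7a had 99 UMIs, Cacna1s, the skeletal muscle channel, 60, and Scn11a, a sensory neuron channel, 30. Cacng6 had 6 UMIs, Scn4a, the muscle sodium channel, 4, Scn4b 4 and the sensory neuron gene Scn10a 2. The genes are long, with a median span of 111 kb from 11.5 kb (Cacng6) to 817 kb (Cacna2d3) in the GENCODE M21 annotation of GRCm38, and nuclear reads come in large part from introns. Levels of different genes are therefore compared only per kb of gene span. All others are CPM of the same gene between classes or libraries.

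**Figure D1:**
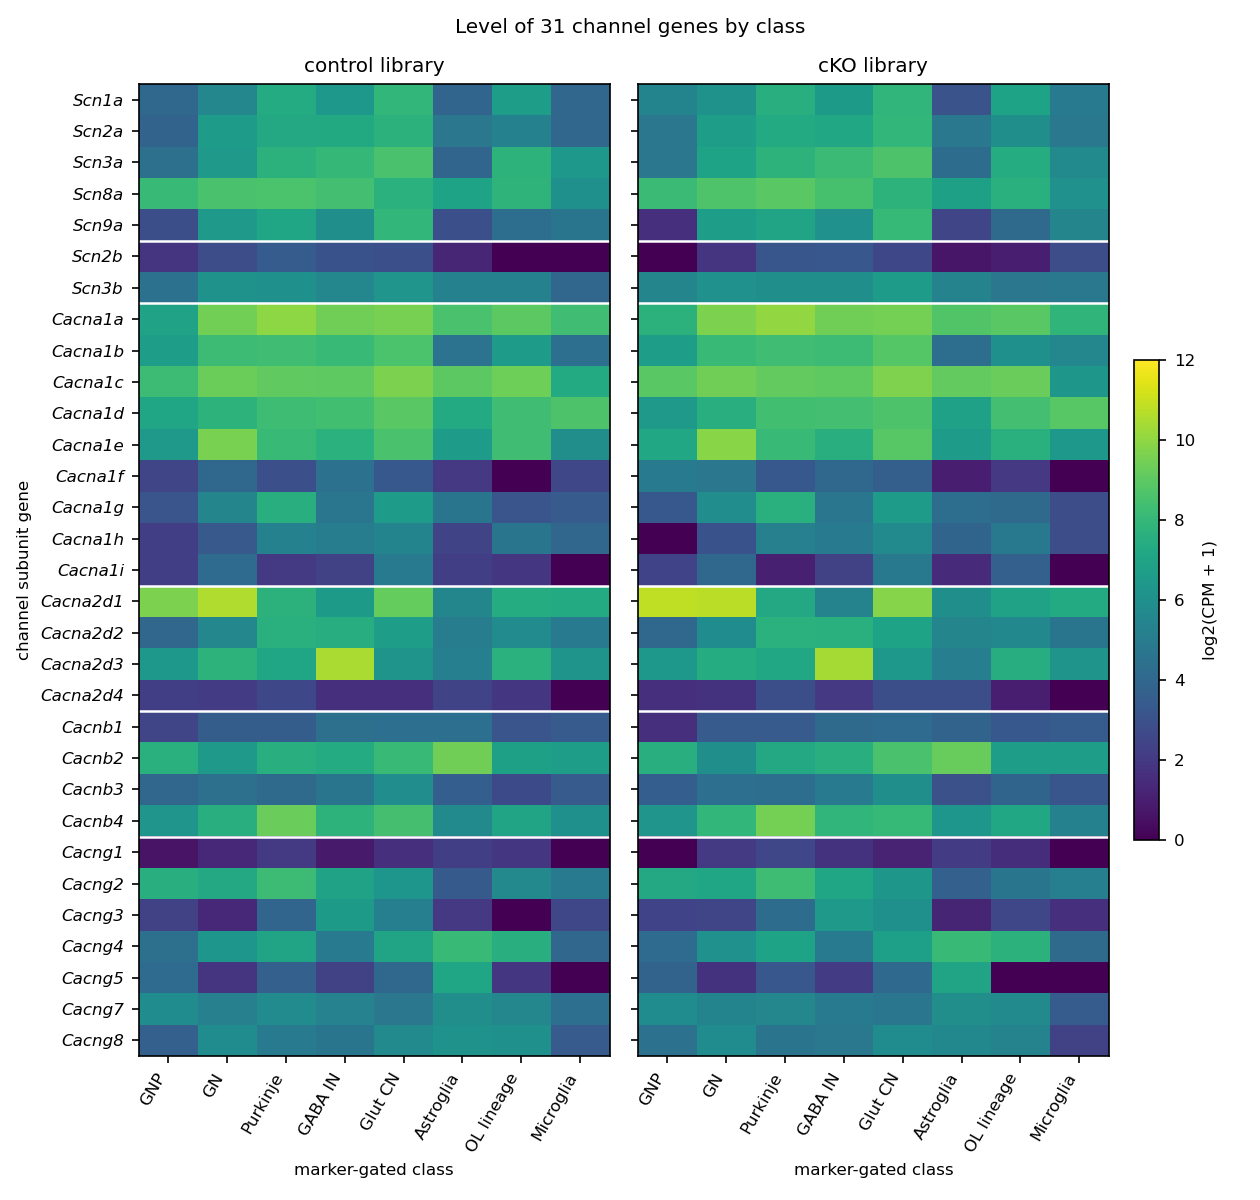
Level of the 31 channel genes with at least 100 UMIs in 8 marker-gated classes, as log2(CPM + 1), in the control library (left) and the cKO library (right); rows are ordered Nav alpha, Nav beta, Cav alpha1, alpha2delta, Cav beta and gamma, with white lines between families. The brightest cells of the control panel are Cacna2d1 in GN-like nuclei (1531 CPM, 1757 in cKO) and Cacna2d3 in GABAergic interneuron-like nuclei (1422 CPM, 1319 in cKO). Colours are not adjusted for gene span, so brightness does not rank one gene against another. In the GNP-like column Cacna2d1 goes from 781 to 1824 CPM between the panels.

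The class in which a gene was highest was shared by both libraries for 23 of the 31 genes. For 13 of them the leading class also stood beyond counting error from the next class in both libraries. In the control library 11 genes were highest in CN-like, 8 in Purkinje cell-like, 6 in astroglia-like, 4 in GABAergic interneuron-like and 2 in GN-like nuclei.

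Among the sodium channel alpha genes, Scn8a (Nav1.6, the channel of mature axon initial segments) was broad. It was at 391 CPM in control and 483 CPM in cKO Purkinje cell-like nuclei, at 373 and 419 CPM in GN-like nuclei, and at 278 and 292 CPM in GNP-like nuclei. Purkinje cell-like and GN-like nuclei did not differ beyond counting error in the control library. Scn1a, Scn2a, Scn3a and Scn9a, which encode Nav1.1, Nav1.2, Nav1.3 and Nav1.7, were all highest in CN-like nuclei. The fetal channel gene Scn3a was there at 373 CPM (319 to 434) in the control and 402 CPM (359 to 449) in the cKO library. Scn1a was at 244 and 234 CPM, Scn2a at 211 and 248 CPM, and Scn9a at 248 and 265 CPM. The control interval of Scn2a, 171 to 257 CPM, overlapped that of GABAergic interneuron-like nuclei, 140 to 172 CPM. All 4 genes were lowest or near lowest in GNP-like and astroglia-like nuclei, with Scn3a at 20.6 and 14.1 CPM in these classes of the control library. Scn3b, an accessory subunit, was spread over GN-, Purkinje cell-, GABAergic interneuron- and CN-like nuclei at 45.3 to 74.6 CPM in the control library. Scn2b, an accessory subunit that becomes abundant later, was scarce, and its highest control level was 10.4 CPM in Purkinje cell-like nuclei.

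Among the calcium channel alpha1 genes, Cacna1a (Cav2.1, the P/Q-type channel) was highest in Purkinje cell-like nuclei at 999 CPM (961 to 1038) in the control and 1049 CPM (1022 to 1076) in the cKO library. It was also broad: even microglia-like nuclei had 321 and 233 CPM. The T-type gene Cacna1g was highest in the same neurons, at 180 and 195 CPM. The R-type gene Cacna1e led in GN-like nuclei at 766 CPM (737 to 795) and 932 CPM (902 to 963), 2.05-fold and 1.99-fold over CN-like nuclei. The L-type gene Cacna1c was highest in CN-like nuclei at 793 CPM (713 to 879) and 817 CPM (755 to 882), and in the control library its interval overlapped that of oligodendrocyte lineage-like nuclei, at 643 CPM (564 to 730). Cacna1i, another T-type gene, was at 28.5 and 27.7 CPM in CN-like nuclei and lower elsewhere, but within counting error of GN-like nuclei in both libraries. Cacna1b (Cav2.2, the N-type channel) led in CN-like nuclei at 389 and 459 CPM and was nearly absent from astroglia-like nuclei at 22.98 and 19.03 CPM. Its control interval in CN-like nuclei, 333 to 450 CPM, overlapped that of Purkinje cell-like nuclei, 293 to 337 CPM. Cacna1d, an L-type gene, was at 492 CPM in control CN-like nuclei and in the cKO library led in microglia-like nuclei at 470 CPM (411 to 535), where the control library had 395 CPM (314 to 492), and the part of free RNA in these values was not tested. The T-type gene Cacna1h stayed at or under 50.3 CPM and the retinal L-type gene Cacna1f at or under 28.4 CPM in every class.

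The alpha2delta genes differed from each other in the classes they marked. Cacna2d1 was at 1531 CPM (1491 to 1572) in control and 1757 CPM (1715 to 1799) in cKO GN-like nuclei. Microglia-like nuclei had 158 and 163 CPM of the same gene, GABAergic interneuron-like nuclei 91.0 and 40.7 CPM and astroglia-like nuclei 45.2 and 62.9 CPM. In the last 2 classes Cacna2d1 lay below its level in microglia-like nuclei and was not read as expression. Cacna2d3 was the reverse: 1422 CPM (1375 to 1471) and 1319 CPM (1286 to 1352) in GABAergic interneuron-like nuclei, 6.50-fold and 7.34-fold the next class. When nuclei were thinned to 1000 UMIs each, 67.6% and 65.2% of GABAergic interneuron-like nuclei had a Cacna2d3 UMI, against 5.26% and 4.40% of microglia-like nuclei. The median depths of these 2 classes in the control library were 5084 and 2987 UMIs before thinning. Cacna2d2 was at 197 and 203 CPM in Purkinje cell-like nuclei and at 178 and 197 CPM in GABAergic interneuron-like nuclei, which did not differ beyond counting error. Cacna2d4 was low, at 5.02 CPM in control Purkinje cell-like and 6.46 CPM in cKO astroglia-like nuclei at most.

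Per kb of gene span, Cacna2d1 made 84.4% of the alpha2delta UMIs of control GN-like nuclei and 87.8% of those of control GNP-like nuclei. In Purkinje cell-like nuclei Cacna2d2 made 69.1% per kb in the control and 72.9% in the cKO library, although Cacna2d1 had the most UMIs there in the control library. In GABAergic interneuron-like nuclei Cacna2d3 made 52.1% per kb and 84.0% of raw UMIs. The family make-up was much alike in the 2 libraries: in 43 of 48 pairs of a family and a class the same gene led per kb.

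**Figure D2:**
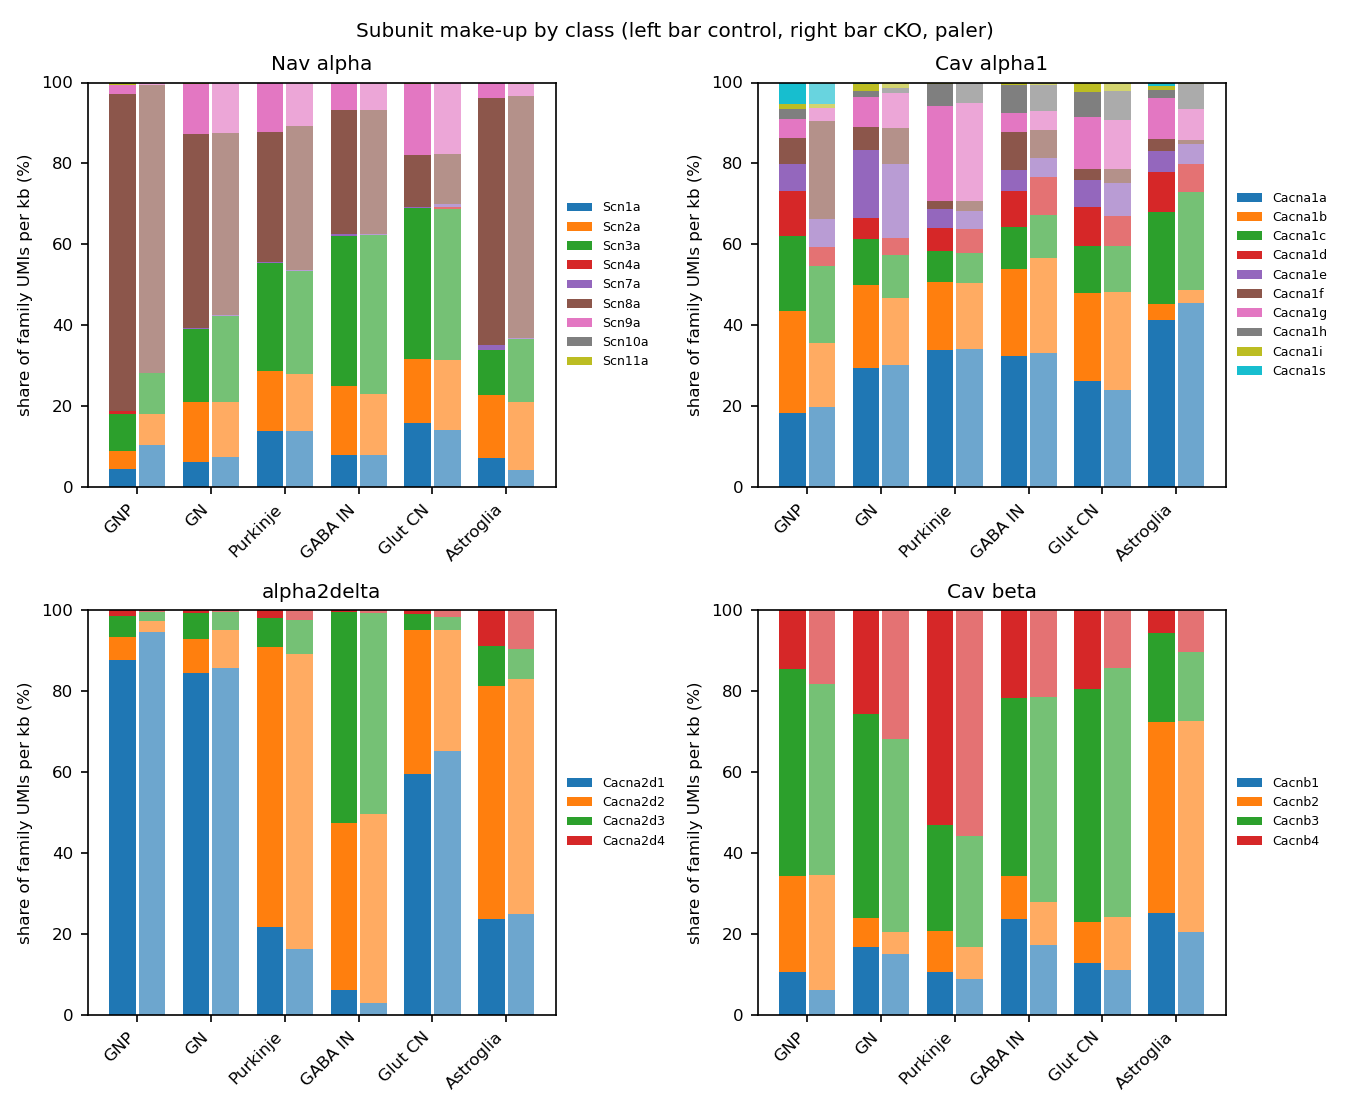
Share of each gene in the UMIs per kb of its family (percent, stacked to 100) for the described Nav alpha, Cav alpha1, alpha2delta and Cav beta genes in 6 classes; the left bar of each pair is the control library and the paler right bar the cKO library. Cacna2d1 fills 87.8% and 84.4% of the control alpha2delta bars in GNP- and GN-like nuclei, and Scn8a fills 78.3% of the control and 71.1% of the cKO Nav alpha bar in GNP-like nuclei.

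Of the beta subunit genes, Cacnb4 led in Purkinje cell-like nuclei at 620 CPM (590 to 651) and 708 CPM (686 to 731), and Cacnb2 in astroglia-like nuclei at 674 CPM (631 to 720) and 594 CPM (566 to 622). In astroglia-like nuclei Cacnb2 was 2.38-fold and 1.57-fold over the next class, CN-like nuclei. Cacnb3 was highest in CN-like nuclei at 57.1 and 62.9 CPM. Cacnb1, best known from skeletal muscle, was at or under 20.6 CPM everywhere.

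The gamma genes are mostly known as auxiliary subunits of AMPA-type glutamate receptors. Cacng2 (stargazin) was highest in Purkinje cell-like nuclei at 303 and 309 CPM. Cacng4 and Cacng5 were highest in astroglia-like nuclei, Cacng4 at 274 and 269 CPM and Cacng5 at 135 CPM (116 to 156) and 126 CPM (113 to 139). Cacng5 was the most selective of the gamma genes, 7.75-fold and 7.69-fold over the next class in the 2 libraries. Cacng3 was highest in GABAergic interneuron-like nuclei at 91.5 and 85.5 CPM, in the cKO library within counting error of CN-like nuclei. Cacng7 was at 19.8 to 59.3 CPM over the control classes. Cacng8 ranged further, from 9.88 CPM in microglia-like and 11.6 CPM (7.28 to 17.6) in GNP-like nuclei to 71.2 CPM (57.6 to 86.9) in astroglia-like nuclei of the control library.

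Several members are neighbours in the genome (positions in GRCm38). There were 7 runs of members within 1000 kb of each other, the one with the most genes being Scn3a, Scn2a, Scn1a, Scn9a and Scn7a on chromosome 2 (65457118 to 66784914). Of those 5, the 4 with at least 100 UMIs led in the same class, CN-like, and Scn7a was near absent. The lead of Scn2a in the control library lay within counting error. On chromosome 11 (107703218 to 107915055) Cacng4 and Cacng5 both led in astroglia-like nuclei and Cacng1 had 127 UMIs in all. On chromosome 14 (28904943 to 30491455) Cacna2d3 led in GABAergic interneuron-like and Cacna1d in CN-like nuclei of the control library, the lead of Cacna1d within counting error.

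The largest differences between the libraries lay in GNP-like nuclei, the proliferating precursors of granule neurons. Of 23 channel genes with at least 20 UMIs there, 10 were at least 1.5-fold higher in the cKO library and 0 at least 1.5-fold lower. Over all 11058 genes with as many UMIs in this class, 10.3% were 1.5-fold higher and 19.0% were 1.5-fold lower, against 43.5% and 0% of the channel genes. The count depended on the settings: with 50 UMIs as the minimum 5 of 14 channel genes (35.7%) were higher, against 7.75% of all genes, and after thinning to 1000 UMIs 4 of 12 (33.3%), against 14.3%. At a fold of 2 it was 4 of 23 (17.4%), against 3.96%. On the lower side, 3 of 22 (13.6%) passed with Seurat clusters, against 21.5% of all genes, 2 of 23 (8.70%) with mean per-nucleus CPM, against 19.4%, 1 of 20 with the stricter gate, against 19.8%, 1 of 12 after thinning, against 21.5%, and 8 of 34 (23.5%) with no minimum of UMIs, against 36.9%. The median log2 ratio was 0.07 over the channel genes and -0.06 over all genes. Of the 10, 7 had intervals that lay above 1 (Cacna1f, Scn1a, Cacna2d1, Scn3b, Cacna1a, Cacna1e and Cacna1c), and 3 rested on few UMIs with intervals that included 1 (Scn2a, Cacng8 and Cacna1s).

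Cacna2d1 had the most UMIs behind it. It had 1480 UMIs in 442 control nuclei and 836 in 121 cKO nuclei, that is 781 and 1824 CPM, a ratio of 2.34 (2.14 to 2.54). In the control library GNP-like nuclei lay well under the 1531 CPM of GN-like nuclei, whereas in the cKO library GNP-like and GN-like nuclei, at 1824 and 1757 CPM, had overlapping intervals. The ratio of GN-like to GNP-like nuclei was 1.96 (1.85 to 2.08) in the control and 0.963 (0.896 to 1.04) in the cKO library. At 1000 UMIs per nucleus, 37.3% (32.8 to 42.0) of control and 71.1% (62.1 to 79.0) of cKO GNP-like nuclei had a Cacna2d1 UMI, so the difference was spread over nuclei. Without thinning, at median depths of 3914.5 and 3590 UMIs, the shares were 64.0% and 90.1%. The share in microglia-like nuclei was 5.26% and 10.7%.

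**Figure D3:**
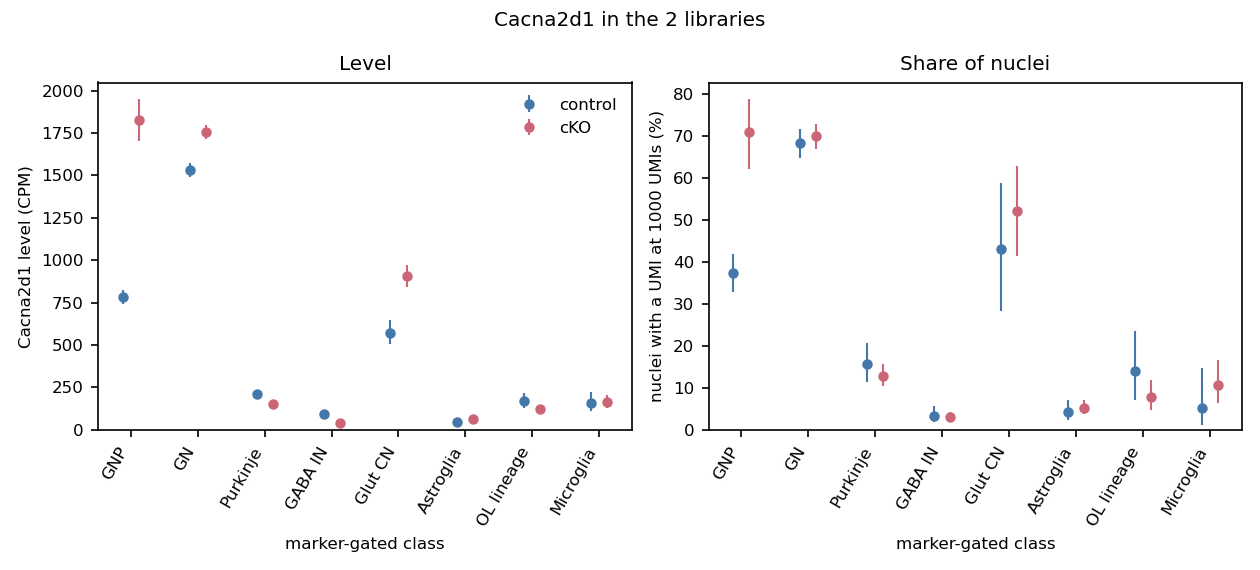
Cacna2d1 by class in the control and cKO libraries: level in CPM with exact Poisson intervals (left) and percent of nuclei with at least 1 UMI after thinning to 1000 UMIs, with exact binomial intervals (right). In GNP-like nuclei the cKO point stands at 1824 CPM and 71.1% against 781 CPM and 37.3%, while the points of GN-like nuclei stand at 1757 and 1531 CPM.

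Of the calcium channel alpha1 genes, 3 had smaller ratios than Cacna2d1 and Cacna1f a larger one on few UMIs. Cacna1c was at 299 CPM in control and 487 CPM in cKO GNP-like nuclei, a ratio of 1.63 (1.39 to 1.90). Cacna1a was at 121 and 209 CPM, a ratio of 1.73 (1.35 to 2.20), and Cacna1e at 86.6 and 146 CPM, a ratio of 1.69 (1.25 to 2.26). The Cacna1a levels lay below those of microglia-like nuclei, 321 and 233 CPM, and the part of free RNA in its ratio was not tested. Cacna1c, Cacna1a and Cacna1e were all higher still in GN-like nuclei. Control levels there were 641, 685 and 766 CPM and cKO levels 666, 786 and 932 CPM. The GN-like to GNP-like ratio was 8.84 in the control and 6.38 in the cKO library for Cacna1e, and 5.64 and 3.75 for Cacna1a. Cacna1f had 9 and 13 UMIs, a ratio of 5.97 (2.36 to 15.8).

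Among the sodium channel genes, Scn1a was at 15.3 and 41.5 CPM (29 and 19 UMIs), a ratio of 2.71 (1.44 to 4.998), and Scn3b at 21.1 and 43.6 CPM (40 and 20 UMIs), a ratio of 2.07 (1.14 to 3.62). Microglia-like nuclei had Scn1a at 14.8 CPM (3.06 to 43.3) and 30.9 CPM (17.3 to 51.0), intervals that overlapped those of GNP-like nuclei. The part of free RNA in the Scn1a ratio was not tested. Scn8a, the most abundant Nav alpha gene per kb in this class, was nearly level at 278 and 292 CPM, a ratio of 1.05 (0.863 to 1.27).

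The other subunits of the class were not past the fold. Cacnb4 had a ratio of 0.998 (0.669 to 1.45), Cacnb2 of 0.960 (0.749 to 1.22), Cacna1b of 0.997 (0.712 to 1.37), Cacng2 of 0.813 (0.620 to 1.05) and Cacna2d3 of 0.994 (0.679 to 1.42). Cacna1d was the nearest to the lower bound, at 133 and 89.5 CPM, a ratio of 0.673 (0.471 to 0.938). Just inside and just outside the fold of 1.5 lay Cacna1s at 1.61 and Scn3a at 1.27.

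**Figure D4:**
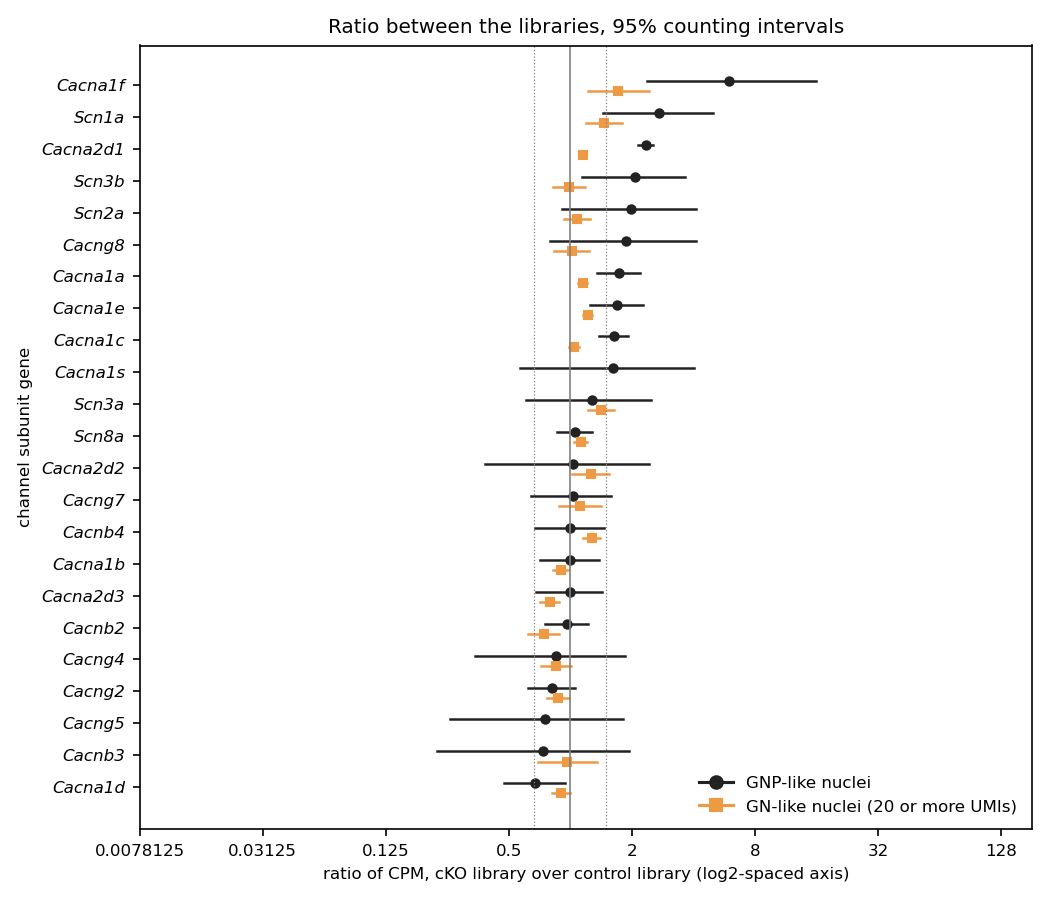
Ratio of CPM in the cKO library over the control library with 95% counting intervals for the 23 channel genes with at least 20 UMIs in GNP-like nuclei (black circles), and for the same genes in GN-like nuclei where they had as many (orange squares); the axis is log2-spaced and dotted lines mark 1.5-fold either way. Black points lie past the upper line for 10 genes, led by Cacna1f at 5.97, while of the orange points only Cacna1f, at 1.72, lies past a dotted line and Scn1a at 1.46 and Scn3a at 1.41 come next.

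Some marker lists of other classes were higher in the same nuclei of the cKO library, and others were not. The granule neuron list summed to 1978 CPM in control and 2553 CPM in cKO GNP-like nuclei (ratio 1.29, higher for 9 of 9 markers that are not GNP markers). The GABAergic interneuron list summed to 180 and 375 CPM (7 of 10 higher), the GABAergic progenitor list to 158 and 329 CPM (5 of 8 higher, with Neurog2, Gsx1 and Dll3 at 0 in the cKO library), and the astroglia list to 712 and 1241 CPM (8 of 10 higher). The list of GNP markers itself summed to 3399 and 3886 CPM, with Fgfr4 at 0 in the cKO library. The Purkinje cell list summed to 910 and 1080 CPM and the oligodendrocyte lineage list to 279 and 288 CPM. The microglia list, at 255 and 207 CPM, and the CN list, at 87.6 and 63.3 CPM, were lower, with ratio intervals that included 1. In GN-like nuclei the GABAergic progenitor, astroglia and GABAergic interneuron lists were also higher in the cKO library, with ratios of 1.77, 1.40 and 1.22. Cacna2d1 was at 40.7 CPM in GABAergic interneuron-like and 62.9 CPM in astroglia-like nuclei of the cKO library, below its GNP-like level in either library. In GN-like nuclei of the cKO library it was at 1757 CPM, near its GNP-like level of 1824 CPM there. Ratios were also taken in 5 overlapping subsets of the GNP-like nuclei, chosen after these values were seen. The point ratios of the 7 genes with intervals above 1 stayed above 1. Whole intervals stayed above 1 in every subset for Cacna2d1 and Cacna1c. Those of Cacna1f did too, but on at most 5 control and 8 cKO UMIs per subset. These counts are under the minimum of 20 UMIs over both libraries set for a ratio. The intervals of Scn3b, Scn1a, Cacna1e and Cacna1a included 1 in some subsets. Cacna1s and Cacng8, with few UMIs, fell below 1 in 2 subsets each. In nuclei with a granule neuron score under 0 (307 control and 58 cKO nuclei), the Cacna2d1 ratio was 2.47 (2.17 to 2.80) and the Cacna1a ratio 1.28 (0.889 to 1.81). Nuclei with an Mki67 or Top2a UMI, both genes of dividing cells, were 74.0% of control and 80.2% of cKO GNP-like nuclei, and among them the Cacna2d1 ratio was 2.05 (1.86 to 2.26). Among nuclei with neither it was 4.02 (3.31 to 4.87). Both pools held females and males, and the ratio was 2.31 (2.05 to 2.59) in GNP-like nuclei with Xist UMIs and 2.08 (1.71 to 2.51) in those with Y-linked UMIs. For Cacna1e these values were 2.25 (1.51 to 3.34) and 1.12 (0.460 to 2.36). The part of other classes in the GNP-like ratios was not tested for any channel gene.

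Genes that work with these channels were counted in the same way. The 31 partner genes were anchors, fibroblast growth factor homologous factors, the NALCN complex, release-site proteins, calmodulins, calcium-release channels and others. Of these, 26 had enough UMIs in GNP-like nuclei. In the cKO library 2 of the 26 were at least 1.5-fold higher, against 10.3% of all genes, and 7 at least 1.5-fold lower, against 19.0%. The median log2 ratio was -0.007 over the partner genes and -0.06 over all genes. These counts were not read as a direction of the partner genes as a set. Fgf13, which binds Nav alpha subunits, was at 545 and 962 CPM, a ratio of 1.77 (1.58 to 1.98). Its relatives Fgf12 and Fgf14 were at 276 and 159 CPM and at 292 and 166 CPM, 1.73-fold (1.35 to 2.24) and 1.76-fold (1.38 to 2.28) lower. Syt1, the calcium sensor of transmitter release, was at 1016 and 327 CPM, 3.10-fold lower, and Ryr2, a calcium-release channel, at 116 and 37.1 CPM, 3.13-fold lower. Ank3, the ankyrin that anchors Nav channels, was at 1639 and 1645 CPM. Microglia-like nuclei had Fgf14 at 549 and 429 CPM, above its GNP-like level in both libraries. They had Fgf13 at 549 and 577 CPM, Syt1 at 301 and 346 CPM and Ryr2 at 24.7 and 65.9 CPM. Fgf12, at 89.0 and 130 CPM, and Ank3, at 222 and 276 CPM, were lower there than in GNP-like nuclei. The part of free RNA in the partner ratios was not tested.

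Members that were higher in GNP-like nuclei are shown with their RefSeq promoter windows (GRCm38.p6), since the GNP factor Atoh1 is a basic helix-loop-helix protein and such proteins bind E-boxes, CANNTG. The motif reads the same on both strands, and its form CAGCTG is counted within it. Of the 10 genes 8 had a window. The 250 bases before the RefSeq start are printed, 5′ to 3′ on the gene's strand, for the 4 that had a single window and an interval above 1, with E-boxes in capitals. They lie at chr5:15934441-15934690 (+) for Cacna2d1, chr2:66440838-66441087 (-) for Scn1a, chr1:154725921-154726170 (-) for Cacna1e and chrX:7606853-7607102 (+) for Cacna1f. The Cacna1e window lies inside the GENCODE span of the gene, 154390731 to 154884501. It therefore does not describe the bases before the 5′ end of that span.
Cacna2d1: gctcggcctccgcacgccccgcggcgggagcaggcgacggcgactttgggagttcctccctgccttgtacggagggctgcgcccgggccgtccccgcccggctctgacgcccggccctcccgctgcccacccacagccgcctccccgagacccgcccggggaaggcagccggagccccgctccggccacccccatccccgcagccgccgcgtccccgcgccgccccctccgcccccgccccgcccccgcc
Scn1a: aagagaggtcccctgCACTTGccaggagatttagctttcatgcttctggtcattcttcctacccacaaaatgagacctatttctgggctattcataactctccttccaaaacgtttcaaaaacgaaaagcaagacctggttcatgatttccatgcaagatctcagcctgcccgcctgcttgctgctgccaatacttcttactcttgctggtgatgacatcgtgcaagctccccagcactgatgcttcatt
Cacna1e: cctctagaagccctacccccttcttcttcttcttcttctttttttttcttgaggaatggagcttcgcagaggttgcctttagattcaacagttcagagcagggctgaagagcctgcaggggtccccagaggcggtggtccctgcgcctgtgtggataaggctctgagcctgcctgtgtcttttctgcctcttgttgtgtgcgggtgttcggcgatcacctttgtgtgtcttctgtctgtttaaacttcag
Cacna1f: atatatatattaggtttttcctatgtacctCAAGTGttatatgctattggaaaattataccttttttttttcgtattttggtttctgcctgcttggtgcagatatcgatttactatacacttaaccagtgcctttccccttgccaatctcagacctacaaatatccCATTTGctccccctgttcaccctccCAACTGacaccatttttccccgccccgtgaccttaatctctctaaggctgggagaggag
The windows of Cacna2d1 and Cacna1e held 0 E-boxes, that of Scn1a 1 and that of Cacna1f 3. Over 32851 windows of the same length 66.2% held CANNTG and 13.0% held CAGCTG, and over the 41 windows of 30 channel genes 63.4% and 26.8% did. Of the 11 windows of the 8 GNP-higher genes 7 held CANNTG and 1 held CAGCTG. A match is a match of letters only.

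Granule neurons and the remaining classes showed few channel genes past the fold. In GN-like nuclei 2 of 29 genes were higher (background 5.73%) and 1 lower (6.72%). The higher ones were Cacng3, with 6 and 18 UMIs, and Cacna1f, at 15.1 and 25.9 CPM, a ratio of 1.72 (1.22 to 2.43), and the lower one was Scn2b, with 22 and 10 UMIs. Cacna2d1 was at 1531 and 1757 CPM there, a ratio of 1.15 (1.11 to 1.19), and Cacna2d3 at 219 and 173 CPM, a ratio of 0.790 (0.712 to 0.877).

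In Purkinje cell-like nuclei 1 of 30 was higher (5.51%) and 0 lower (7.55%), and that 1 was the scarce muscle gene Cacng1. The genes of the ataxic mutants were not past the fold. Cacna2d2 had a ratio of 1.03 (0.928 to 1.15), Cacng2 of 1.02 (0.936 to 1.11) and Cacna1a of 1.05 (1.002 to 1.10). Cacnb4, at 1.14 (1.08 to 1.21), and Scn8a, at 1.23 (1.15 to 1.33), were higher in the cKO library beyond counting error. In GABAergic interneuron-like nuclei 0 of 29 were higher (5.59%) and 1 lower (6.05%). This was Cacna2d1, below its level in microglia-like nuclei in both libraries, at 91.0 and 40.7 CPM, 2.24-fold (1.83 to 2.73) lower, and at 1000 UMIs 3.36% and 2.98% of these nuclei had a UMI of it. With predicted doublets kept the ratio was 0.674 and no longer past the fold.

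In astroglia-like nuclei 1 of 26 was higher (8.64%) and 3 lower (6.74%). Cacna1h had 6 and 40 UMIs there, a ratio of 3.06 (1.29 to 8.82), and Scn1a, Cacnb1 and Cacnb3 were lower with intervals that included 1. In oligodendrocyte lineage-like nuclei 2 of 22 were higher (14.1%) and 3 lower (11.9%). Cacna1e was at 314 and 194 CPM, 1.61-fold (1.27 to 2.04) lower, and Cacng2 at 48.7 and 24.5 CPM, 1.98-fold (1.02 to 3.78) lower. Scn2a and Cacna1g on the higher side and Cacng8 on the lower side had intervals that included 1. In CN-like nuclei 2 of 27 were higher (12.3%) and 0 lower (9.89%). Cacna2d1 was at 573 and 905 CPM, a ratio of 1.58 (1.37 to 1.83), and Cacng3 at 35.1 and 64.1 CPM, a ratio of 1.83 (1.02 to 3.43). Outside GNP-like nuclei no class had more than 3 channel genes past the fold in 1 direction.

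Whole libraries were compared next, in which a difference in level and a difference in the number of nuclei of a class cannot be told apart. Over all kept nuclei 1 of 34 genes was at least 1.5-fold higher in the cKO library (Cacng1, background 7.03%) and 2 lower (Cacna1s and Scn11a, 7.72%). Of the 31 abundant genes, 18 had ratios with whole intervals above 1 and 2 below. Among the higher ones were Scn1a at 85.2 and 118 CPM (ratio 1.39), Cacng3 at 17.1 and 23.8 CPM (1.39), Cacna2d2 at 86.3 and 117 CPM (1.36) and Cacnb4 at 249 and 319 CPM (1.28). Cacna2d1 was lower, at 925 and 738 CPM, a ratio of 0.798 (0.782 to 0.813).

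To hold the mixture of classes constant, the class levels of each library were averaged with the UMI shares of the 8 classes in the control library. With the shares held, 1 of 33 genes was 1.5-fold higher (Cacna1f at 1.52, background 4.68%) and 0 lower (6.20%), and 19 of the 31 ratios moved nearer to 1. Between 0.8 and 1.25 lay 27 held ratios against 23 library ratios. Cacng3 went from 1.39 to 1.07, Cacna2d2 from 1.36 to 1.10, Cacna1g from 1.29 to 1.11 and Scn3a from 1.34 to 1.14. Cacna2d1 went from 0.798 to 1.33, to the other side of 1. Its leading class in the control library, GN-like, was 15.2% of the control and 13.9% of the cKO nuclei, and the GNP-like class, with 781 and 1824 CPM, was 9.47% and 1.85%. The weights, however, were shares of UMIs and not of nuclei. GN-like nuclei had 3645504 control and 3821332 cKO UMIs, and GNP-like nuclei 1894768 and 458347. All kept nuclei had 20546345 and 30147400 UMIs. Nuclei outside the 8 classes count in the library ratios only.

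**Figure D5:**
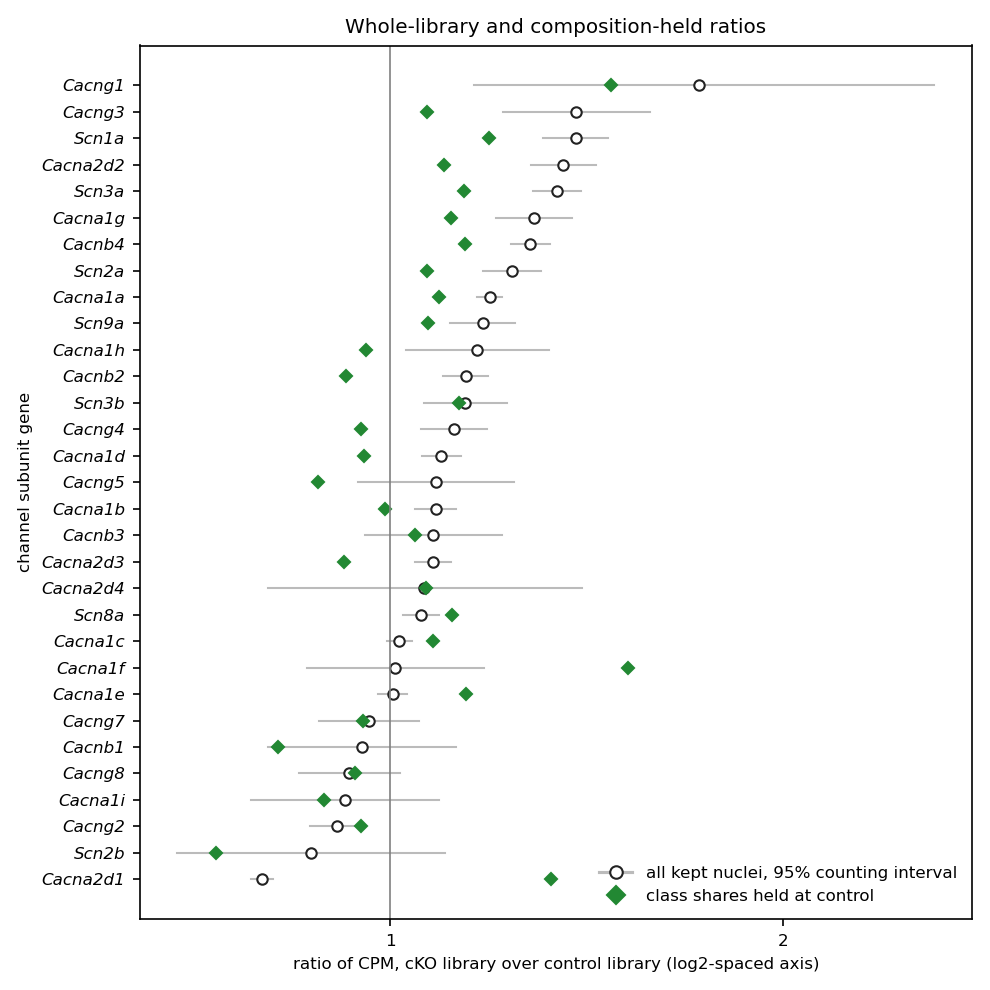
Ratio of CPM in the cKO library over the control library for the 31 channel genes with at least 100 UMIs, over all kept nuclei (open circles with 95% counting intervals) and with class shares held at those of the control library (green diamonds); the axis is log2-spaced. Most diamonds lie nearer to 1 than their circles, and Cacna2d1 at the bottom moves from 0.798 to 1.33.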

How the data were processed

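Nuclei from 12 pooled P1 cerebella per condition were sequenced with 10x 3′ v3.1 chemistry, 1 library each. Per the labels, the authors used Cell Ranger 7.0.1 and mm10, and the deposited values are UMI counts per gene and nucleus. No other normalization had been applied to them, and ambient RNA was not corrected here. Nuclei over 25% mitochondrial UMIs (1 and 5) were removed, as were the highest Scrublet scores (189 and 386 barcodes, 0.8% per 1000 barcodes; scanpy 1.11.5). A nucleus was gated by the mean over a marker list of log2((UMI + 0.5)/(expected + 0.5)), with at least 1000 UMIs, 3 markers detected, a score of 0.1 and a lead of 0.1 over the next list. This put 2309 control and 3944 cKO nuclei in the 8 classes described. Another class and 2 of the 40 genes are not reported here. The scoring rule was set after the data were seen. The channel genes and all lists were chosen with earlier results of these data known. Raw UMIs were summed per class and library and divided by all UMIs (CPM). Levels carry exact Poisson, ratios conditional binomial and shares Clopper-Pearson intervals at 95%. A ratio was given at 20 or more UMIs over both libraries and called past the fold at 1.5. Named members were those with 100 or more UMIs, and per class those past the fold with 20 or more. Of 32 partner genes listed 31 were in the files. With 1 library per condition no count model was fitted. The scripts were tested on simulated data. Clusters from Seurat 5.3.0 were an alternative: 95.2% of gated nuclei in a named cluster had the same class there (84.6% of GNP-like nuclei). Positions are from GENCODE M21 (GRCm38).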

Additional observations from a re-analysis of the deposited data

Results flagged for a closer look

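Cacna2d1 and Cacna1e had classes that moved in opposite directions, each past 1.5-fold with an interval that excluded 1. Cacna2d1 had a cKO to control ratio of 2.34 in GNP-like, 1.58 in CN-like and 0.447 in GABAergic interneuron-like nuclei, where its level lay below that of microglia-like nuclei. Cacna1e had a ratio of 1.69 in GNP-like and 0.620 in oligodendrocyte lineage-like nuclei. With 1 library per condition the difference between classes was not tested.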

How the results depend on the processing

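No paired analysis was possible because each condition was 1 library. The counts of genes past the fold were small and depended on the settings, while median-of-ratios scaling changed none of the 14 by over 1.5 times. For GNP-like nuclei, the 10 higher genes became 5 with 50 UMIs as the minimum, 4 when thinned to 1000 UMIs and 4 at a fold of 2, and the 0 lower genes became 3 with Seurat clusters, 1 with the stricter gate, 8 with no minimum of UMIs, 1 when thinned and 2 with mean per-nucleus CPM. In GN-like nuclei higher genes numbered 1 at 50 UMIs, 4 with no minimum, 5 thinned, 4 with per-nucleus CPM and 1 at a fold of 2, and lower genes 3 with the stricter gate, 0 at 50 UMIs, 3 with no minimum and 3 with per-nucleus CPM. In Purkinje cell-like nuclei higher genes numbered 2 with the stricter gate, 0 at 50 UMIs, 3 with no minimum, 0 with per-nucleus CPM and 0 at a fold of 2, and lower genes 1 with the stricter gate, 1 with doublets kept and 4 with no minimum. In GABAergic interneuron-like nuclei higher genes numbered 1 with no minimum and 1 thinned, and lower genes 2 with the stricter gate, 0 with doublets kept, 3 with no minimum, 3 thinned and 2 with per-nucleus CPM. In astroglia-like nuclei higher genes numbered 4 with Seurat clusters, 2 at 2000 UMIs per nucleus, 3 with doublets kept, 0 at 50 UMIs, 3 with no minimum, 2 thinned and 2 with per-nucleus CPM, and lower genes 1 with Seurat clusters, 1 with the stricter gate, 1 at 50 UMIs, 9 with no minimum and 0 at a fold of 2. Over all kept nuclei higher genes numbered 4 with no minimum, 5 thinned and 0 at a fold of 2, and lower genes 1 at 50 UMIs, 0 thinned and 1 at a fold of 2. With class shares held, higher genes numbered 2 with the stricter gate, 0 at 2000 UMIs per nucleus and 0 at a fold of 2, and lower genes 1 with Seurat clusters. A higher minimum or fold leaves fewer genes able to pass, and for the others the cause was not tested.

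Among single values, 292 moved by less than their counting interval, 59 moved more and 0 turned direction. The Cacna2d1 ratio in GNP-like nuclei lay between 2.20 (doublets kept) and 2.95 (Seurat clusters) over the settings applied to all classes, and that of Cacna1f between 4.39 (stricter gate) and 14.6 (thinned). Genes with few UMIs per class, such as Cacna1f and Scn1a in the 121 cKO GNP-like nuclei, are limited by depth.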

Other observations

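The step from GNP-like to GN-like nuclei within the control library sorted the channel genes by direction. The control GNP-like levels used here are also the denominators of the GNP-like ratios between the libraries. The step is therefore not independent of those ratios. Scn9a was 13.6-fold (7.65 to 26.5) higher in GN-like than in GNP-like nuclei, Cacna1e 8.84-fold (7.55 to 10.4), Scn2a 7.32-fold (4.87 to 11.5) and Cacna1a 5.64-fold (4.93 to 6.49). The GN-like level was below the GNP-like level for Cacng5, with a ratio of 0.142 (0.0597 to 0.303), Cacnb2 at 0.440 (0.377 to 0.514), Cacng7 at 0.668 (0.514 to 0.871) and Cacng2 at 0.807 (0.705 to 0.925). In the cKO library, with 121 GNP-like nuclei, the same ratios were 46.9 (8.37 to 1857) for Scn9a, 3.99 (2.26 to 7.78) for Scn2a, 0.339 (0.263 to 0.439) for Cacnb2 and 0.865 (0.673 to 1.13) for Cacng2. Within a family the accessory genes thus differed in direction: Cacnb4 was 2.50-fold (2.09 to 3.01) higher in GN-like nuclei of the control library, while Cacnb2 was lower. Both classes were set by markers of these same nuclei, and these values are a description of 1 library each.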
